A study of Mus musculus with 8 samples.

Results

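The transcriptome of the newborn wild-type cortex was described from the 4 libraries labelled wild type, out of 8 libraries in a series that addresses how the R342X mutation of Phf6 alters cortical gene expression. The 4 mutant libraries were not analysed here and no genotype was compared. The wild-type libraries came from cortex of FVB/N mice on postnatal day 0, which had been flash frozen and extracted with TRIzol, and the libraries were built for mRNA. FVB/N is an inbred strain. The labels name no animal, litter, sex or batch, so the spread between libraries may be technical. Values with ± are means with the SD over the 4 libraries unless another n is given. Levels are TPM, a relative unit scaled for transcript length and to a fixed sum per library, and a gene's level is the sum over all transcripts that carry its symbol.

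At birth the cortex holds mostly young projection neurons that have left the cell cycle and are extending axons and dendrites. Radial glia and intermediate progenitors are in the last phase of neuron production or are turning to glia, inhibitory interneurons have arrived from the ventral forebrain, and myelin has not yet formed. Much of the later change in synapses, channels and transporters is made by exchanging an early gene or exon for a late one. In bulk tissue, fewer cells of a type and less RNA per cell cannot be told apart.

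The libraries held 48841467, 62933780, 74266937 and 65416745 estimated reads for replicates 1 to 4. Replicate 1 stood apart from the others. Over 13594 protein-coding genes, Pearson's r of log2(TPM + 1) was 0.988 to 0.991 between replicate 1 and each other library and at least 0.996 among replicates 2, 3 and 4. Replicate 1 was the library farthest from the others for 6606 of the 11012 protein-coding genes of at least 5 TPM. Its deviation grew with transcript length, from a median of -0.02 (log2) for genes of under 1000 bases to 0.18 for genes of over 4000 bases, and replicate 4 moved the other way, from 0.02 to -0.13. No pair of libraries agreed within sampling noise: the median chi-square per gene, with 1 degree of freedom, was 1.21 to 1.55 among replicates 2, 3 and 4 and 3.60 to 4.76 for pairs with replicate 1. All 4 libraries had Y-linked transcripts (Ddx3y at 41.1 to 60.2 TPM) and little Xist, the RNA of the inactive X chromosome (0.0371 to 0.062 TPM).

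Of 53302 gene symbols, 15774 reached 1 TPM in every library, and 13227 of these were protein-coding, or 60.7% of the 21794 protein-coding symbols. Each library alone had 17019 to 17193 symbols at that level. At the other end, 5207 protein-coding symbols (23.9%) lay under 0.1 TPM, and 18386 symbols of any type had no read in any library. The detected protein-coding genes had a median of 22.5 TPM. Few genes were very abundant: 101 protein-coding genes exceeded 1000 TPM, 1632 lay between 100 and 1000, 7598 between 10 and 100, and 4263 between 1 and 10. The 100 most abundant genes held 26.1 ± 1.67% of all TPM, with 24.0%, 26.9%, 25.7% and 27.9% in replicates 1 to 4.

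Tuba1a, an alpha-tubulin of growing neurons on chromosome 15 (GRCm38, 98949837 to 98953703), was the most abundant nuclear protein-coding gene, at 8707, 9236, 8119 and 7669 TPM in replicates 1 to 4. Its lowest library was 4 and its highest 2, with replicate 1 inside the range. Tmsb10, a thymosin that binds monomeric actin, reached 5932 ± 275 TPM and Eef1a1, a translation elongation factor, 5902 ± 206 TPM. Stmn1, which destabilises microtubules, stood at 4868, 5113, 5058 and 4997 TPM, with little spread. Tubb2b, a beta-tubulin of migrating neurons, reached 4463 ± 156 TPM, Actg1, cytoplasmic gamma-actin, 3132 ± 74.0 TPM, and Tmsb4x, the other actin-binding thymosin, 2905 ± 171 TPM. The rest of the leading 20 were Ptma, Nnat, Ptms, Rpl13a, Rpl41, Tpt1, Ppia, Rplp1, Actb, Hba-a1, Tubb3, Tubb5 and Ftl1, between 2034 and 2599 TPM. These 20 genes together held 6.60% of TPM. Their transcripts were short, with a median of 1030 bases against 2535 over all detected protein-coding genes.

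**Figure D1:**
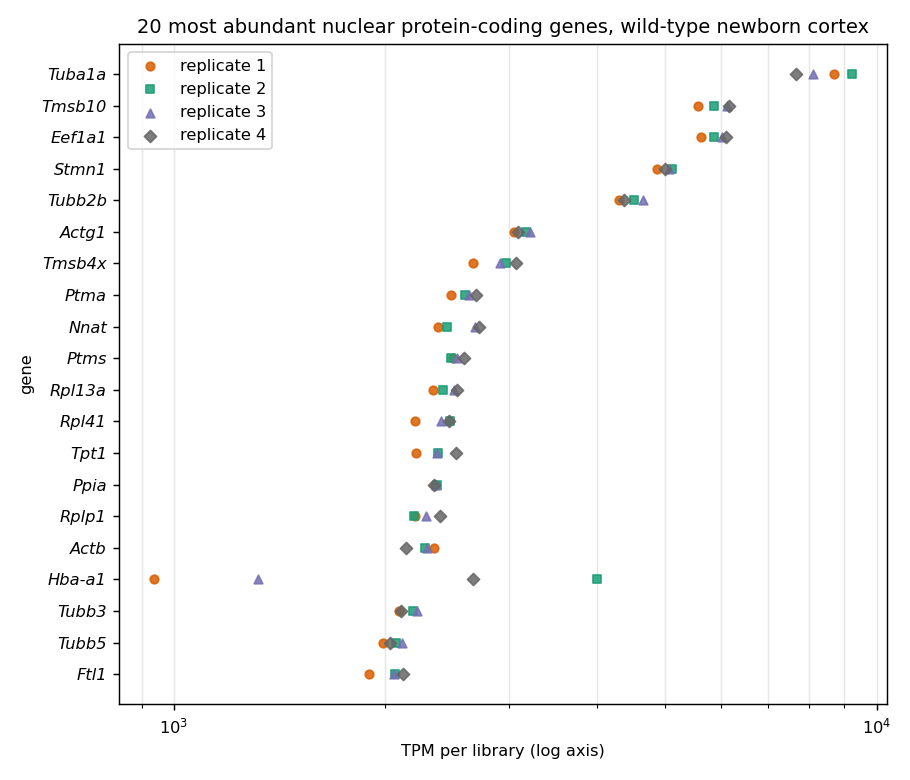
TPM (log axis) of the 20 most abundant nuclear protein-coding genes, ordered by mean, with 1 point per wild-type library. Points of a gene lie close together except for the globin gene Hba-a1, which runs from 939 TPM in replicate 1 to 4004 in replicate 2.

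Genes encoded by the mitochondrial genome held 8.75 ± 0.60% of TPM, led by mt-Co2, a cytochrome oxidase subunit, at 12200 ± 687 TPM, and mt-Atp6, an ATP synthase subunit, at 11927 TPM (10639 to 13806). The lowest was mt-Nd6, at 147, 107, 88.4 and 80.6 TPM. The 77 cytosolic ribosomal protein genes held 7.33 ± 0.40%. Globin RNA varied far more than either: the 4 adult globin genes held 0.243%, 1.04%, 0.349% and 0.708% of TPM in replicates 1 to 4.

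Non-coding and pseudogene symbols led by Mir6236 were also high in TPM. Mir6236 is annotated as a miRNA gene of 123 bases on chromosome 9 (110281287 to 110281409), and it was listed at 6826, 11460, 7511 and 13160 TPM from 3128, 7251, 5546 and 8941 reads. Gm24245, of 57 bases and also annotated as a miRNA, was listed at 3898 to 8089 TPM. Replicates 2 and 4 were the higher libraries for both. Transcripts of under 200 bases took 3.06% to 4.07% of TPM but only 0.0301% to 0.0418% of reads, since TPM divides by length. Next came Rps2-ps10 (1700 ± 62.7 TPM), Bc1, a short cytoplasmic RNA of neurons (1600 ± 237 TPM), Rps23-ps1 (1581 ± 108 TPM) and Rpl31-ps8 (1244 ± 102 TPM). The 3 with ps in their names are ribosomal protein pseudogenes, near-identical in sequence to their parent genes, so that the split of reads between copy and parent is uncertain.

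Gene lists for 31 cell types, regions and processes, holding 472 entries in all, were ranked by the median level of their members on the scale log2(TPM + 1). The median over detected protein-coding genes was 4.55, and 13 lists lay above it. That reference leaves out undetected genes, whereas the lists keep theirs. Over all 21794 protein-coding genes the median was 2.64. Only the lists of hippocampus, thalamus and hypothalamus, border macrophages, cerebellum and hindbrain, and skin, muscle and cartilage lay below 2.64. Axon growth and cytoskeleton genes led at 9.99 ± 0.04, followed by newborn projection neuron genes at 8.20 ± 0.05. Genes of the presynaptic terminal (6.88 ± 0.14) and of radial glia (6.35 ± 0.07) came next among the tissue lists. Genes of upper layer neurons (5.92 ± 0.09), deep layer neurons (5.68 ± 0.08) and the postsynaptic side (5.67 ± 0.18) followed, and these neighbours lay within 0.3 of each other. The other lists above the median of detected protein-coding genes were reference genes (7.53), chromatin genes with PHF6 partners (6.16), imprinted genes (5.15), meningeal fibroblasts (4.98), astrocytes (4.97) and GABAergic interneurons (4.76). Below the median of detected genes lay intermediate progenitors (4.07), striatum (3.98), cell cycle (3.86), endothelial cells (3.85), microglia (3.68), red blood cells (3.48 ± 0.72) and GABA-A receptors (3.35). Cajal-Retzius cells (3.31), immediate early genes (3.30), the oligodendrocyte lineage (3.12), olfactory bulb (2.99), choroid plexus (2.93) and pericytes (2.89) were lower, as were hippocampus (2.44), thalamus and hypothalamus (1.87) and border macrophages (1.67). At the bottom stood genes of cerebellum and hindbrain (0.07 ± 0.02) and of skin, muscle and cartilage (0.65 ± 0.10). Both places rest on members under 1 TPM (11 of 14 and 7 of 12): without them the medians were 4.66 and 2.45. The red blood cell median became 10.23 without its 4 of 9 such members, and on the same footing border macrophages stood at 2.95, thalamus and hypothalamus at 2.67, GABA-A receptors at 4.10, immediate early genes at 3.94 and olfactory bulb at 3.65. A list's level is the mean of its 4 library medians. Leaving out 1 library therefore cannot move it by more than the SD, so that run does not show how steady a list is.

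**Figure D2:**
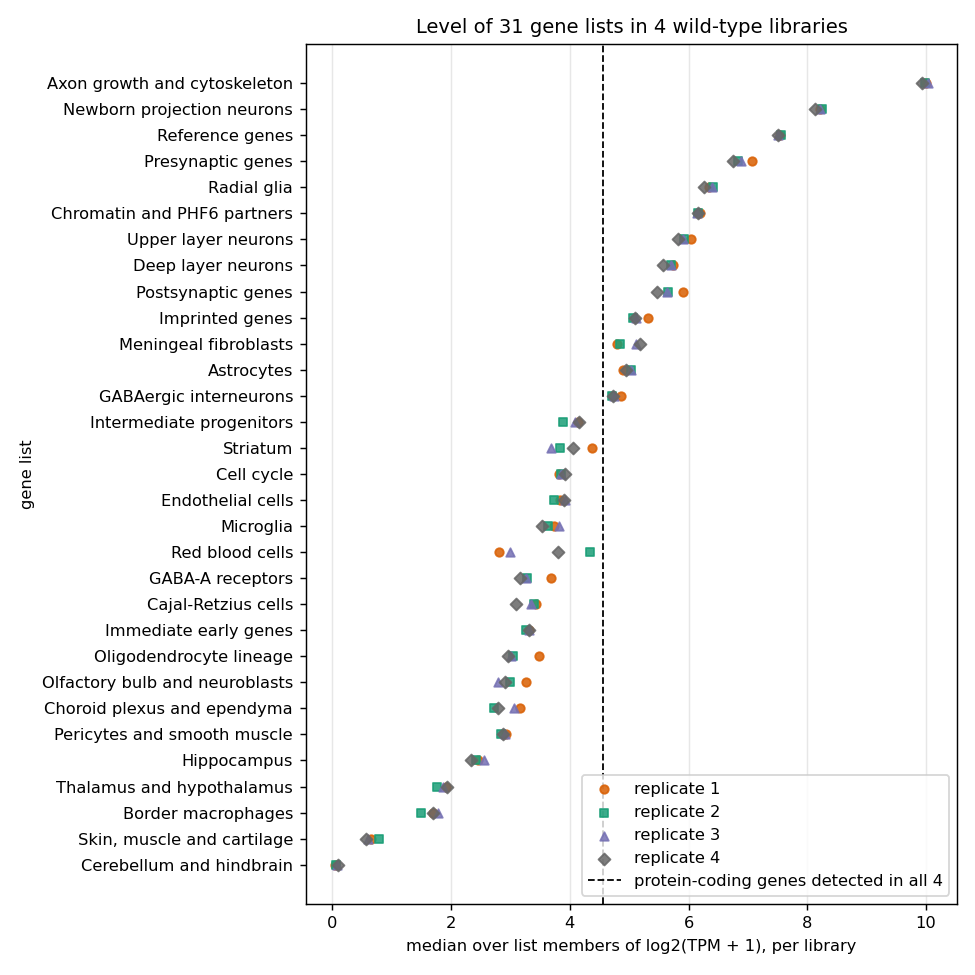
Median over the members of each of 31 gene lists of log2(TPM + 1), with 1 point per wild-type library. The dashed line is the mean over libraries of the median of protein-coding genes detected in all 4 (4.55), and the red blood cell list is the most spread, from 2.80 in replicate 1 to 4.34 in replicate 2.

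Among projection neuron genes, all 14 newborn neuron markers exceeded 10 TPM. Stmn2, a stathmin of growth cones, stood at 1062, 1084, 1085 and 1019 TPM. Gap43, a growth cone protein, stood at 974 ± 29.5 TPM and Dcx, the microtubule protein doublecortin, at 348, 327, 316 and 279 TPM. The transcription factors Neurod6 (363 ± 29.3 TPM) and Neurod2 (271 ± 11.4 TPM) were higher than Neurod1 (26.2 ± 3.85 TPM) in every library.

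Upper and deep layer factors were both plentiful. Of the upper layer list, Lmo4, a LIM-only cofactor, was highest at 291 ± 15.9 TPM, ahead of Pou3f3 (119 ± 1.65 TPM), Cux1 (94.7 ± 2.65 TPM) and Plxnd1, a semaphorin receptor (84.8 ± 2.47 TPM). Of the deep layer list, Tbr1, a factor of corticothalamic neurons, stood at 119, 112, 109 and 107 TPM. Nr4a2, a nuclear receptor of the subplate and claustrum, stood at 84.9 ± 9.81 TPM. Bcl11b and Fezf2, which specify subcerebral neurons, stood at 69.0 ± 11.2 and 56.9 ± 5.24 TPM. Crym, a thyroid hormone binding protein, was at 82.3 to 86.4 TPM in replicates 1, 2 and 3 and at 53.0 in replicate 4. Cplx3, a subplate complexin, was the lowest of the list, at 0.879 ± 0.084 TPM.

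The radial glia list had a median of 6.35 and the intermediate progenitor list one of 4.07 on the log2(TPM + 1) scale. Fabp7, a fatty acid binding protein of radial glia, stood at 1668, 1509, 1476 and 1452 TPM. Dbi (270 ± 45.5 TPM), Pea15a (253 ± 11.8 TPM), Vim (246 ± 8.43 TPM) and Ptprz1 (156 ± 18.3 TPM) followed, though several of these are also made by astrocytes. The transcription factors Sox2 and Pax6 stood at 70.6 ± 1.42 and 24.8 TPM (23.7 to 27.0 for the latter). Eomes, which defines intermediate progenitors, was at 13, 11.2, 10.2 and 12 TPM and Neurog2 at 6.84 ± 0.54 TPM. Neurog1, a proneural factor of earlier stages, had 1 read in replicate 2 and none in the other libraries. The higher members of that list, Tcf4 (398 ± 24.3 TPM) and Sox11 (236 ± 5.46 TPM), are also expressed by young neurons. Cell cycle genes had a median of 3.86 ± 0.04, with Pcna, the replication clamp, at 114 ± 2.85 TPM and Mki67, a marker of cycling cells, at 8.20 ± 0.49 TPM.

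Inhibitory neuron genes were present at moderate levels. The peptides Npy and Sst stood at 236 ± 7.09 and 228 ± 15.0 TPM, while Vip, the peptide of a late-maturing class, was at 1.64, 1.08, 0.947 and 0.498 TPM. Gad1, which makes GABA, was at 78.1, 59.6, 60.9 and 62.8 TPM and Gad2 at 23.7 ± 1.48 TPM. Dlx1 (70.4 ± 2.98 TPM) and Lhx6 (47.9 to 51.6 TPM), which direct interneuron fate, were steady between libraries. Pvalb, the calcium buffer of fast-spiking cells and here a member of the hindbrain list, was at 0.0308 to 0.0974 TPM. Reln, made by Cajal-Retzius cells and also by interneurons, stood at 143 ± 11.4 TPM, whereas Trp73, a more restricted Cajal-Retzius marker, stood at 6.04 ± 1.14 TPM.

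Apoe (646 ± 58.1 TPM) and Sparcl1 (262 ± 19.6 TPM) led the astrocyte list, while Aqp4, the water channel of astrocyte endfeet, was at 7.99, 5.35, 6.0 and 4.35 TPM and S100b at 1.36 ± 0.20 TPM. Gfap, the astrocyte filament, stood at 24.0, 22.4 and 22.8 TPM in replicates 1 to 3 and at 13.9 in replicate 4. In the oligodendrocyte lineage, the precursor genes Olig1 (66.8 ± 11.0 TPM), Olig2 (22.3 ± 6.37 TPM) and Pdgfra (21.1 ± 1.96 TPM) were well measured. Mbp, a myelin protein gene that also has non-myelin transcripts, stood at 17.8 ± 0.76 TPM. The late myelin genes Mobp (0.144 ± 0.037 TPM), Mog (0.0692 ± 0.054 TPM) and Opalin (0 in replicates 1 and 2) were near or at 0. Of 13 lineage genes, 10 were highest in replicate 1, as were 59.8% of all detected protein-coding genes.

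Immune, vascular and covering tissues were all represented. Among microglial genes, the complement gene C1qa stood at 20.5 ± 1.18 TPM, and P2ry12 and Tmem119, which mark mature microglia, stood at 7.38 ± 2.26 and 3.29 ± 0.52 TPM. Border macrophage genes were lower, with Pf4 at 15.4 ± 2.89 TPM and Mrc1 at 7.91 ± 0.72 TPM. Cldn5, the tight junction protein of brain endothelium, stood at 102, 104, 124 and 120 TPM, so that replicates 3 and 4 lay above replicates 1 and 2. The pericyte genes Vtn and Rgs5 stood at 41.6 ± 3.82 and 38.2 ± 3.60 TPM. Of the meningeal fibroblast genes, Col3a1, a fibrillar collagen, stood at 50.2, 50.9, 63.5 and 65.8 TPM, and Igf2, an imprinted growth factor, at 160, 164, 198 and 200 TPM, both higher in replicates 3 and 4 as well. Summed over its 13 members, the meningeal list came to 871, 876, 1058 and 970 TPM, and how much of the meninges went with each cortex was not tested.

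Genes of neighbouring regions ranged from absent to moderate. Of 14 cerebellum and hindbrain genes, 10 were under 0.1 TPM, among them En1, En2, Barhl1, Pvalb, Hoxa2, Hoxa5, Hoxb3, Atoh1 and Gabra6. The hindbrain members that were present, Cbln1 (32.0 ± 0.59 TPM), Zic1 (24.4 ± 2.55 TPM) and Calb1 (17.1 ± 2.04 TPM), are also made in forebrain. Striatal genes were present, with Foxp1, also a cortical factor, at 109 ± 5.86 TPM and Ppp1r1b at 65.3 ± 4.23 TPM. The dopamine receptor Drd1 stood at 8.59, 4.24, 5.66 and 5.32 TPM, and replicate 1 was the highest. Replicate 1 was highest for 12 of 14 striatal genes. The same held for 11 of 12 choroid plexus and ependymal genes and for 22 of 23 postsynaptic genes, beside the 59.8% of all detected protein-coding genes. Over the 31 lists, 11 had a share above that background. Replicate 1 was highest for only 4 of 14 endothelial and 2 of 13 meningeal fibroblast genes. Whether tissue taken with the cortex or transcript length has a part in this was not tested. Ttr, a thyroid hormone carrier made by the choroid plexus, stood at 1186, 796, 1051 and 812 TPM, so replicates 1 and 3 lay above 2 and 4. Among the 14 thalamus and hypothalamus genes, 8 were detected in every library and 3 reached 10 TPM, with Slc17a6 among the highest. The hypothalamic peptide genes Hcrt (0.298 ± 0.25 TPM) and Avp (0.572 ± 0.47 TPM) were low, and Six6, a hypothalamic factor, was under 0.1 TPM. In the skin, muscle and cartilage list, 4 of 12 genes were detected in every library and only the keratin gene Krt10 reached 10 TPM. Krt5 and Krt14, also keratins of skin, were under 0.1 TPM.

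Synaptic genes were already high. Among presynaptic genes all 20 exceeded 10 TPM, led by Vamp2, a vesicle SNARE (411 ± 8.07 TPM), and Rab3a, a vesicle GTPase (331 ± 10.6 TPM), with Snap25, a plasma membrane SNARE, at 249 ± 16.4 TPM. Among 23 postsynaptic genes the highest were Camk2b, a kinase subunit (364, 341, 341 and 302 TPM), Dlg4, the scaffold PSD-95 (246, 214, 223 and 203 TPM), and Gria2, an AMPA receptor subunit (204 ± 22.6 TPM). Immediate early genes, which neuronal activity induces, were modest, with Homer1 at 54.9 ± 5.92 TPM, Fos at 3.67 ± 0.28 TPM and Arc at 1.35 ± 0.36 TPM. The imprinted genes Nnat (2554 ± 171 TPM), Gnas (1184 ± 30.8 TPM), Rian (949 ± 50.6 TPM) and Meg3 (939 ± 63.1 TPM) were abundant.

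All 23 chromatin genes listed, PHF6 partners among them, exceeded 10 TPM. Chd3 and Chd4, remodelling ATPases of the NuRD complex, stood at 455 ± 32.9 and 146 ± 6.30 TPM, and the histone deacetylase Hdac2 stood at 269 ± 10.5 TPM. Phf6 itself, on the X chromosome (52912266 to 52956943), was at 42.3, 31.9, 32.0 and 29.0 TPM, with replicate 1 above the other 3. Its leading transcript held 96.8 ± 0.37% of its TPM.

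The list of 19 gene pairs held mostly an early and a late form of the same function, besides pairs of another kind (a neuronal against a general splicing regulator, and genes of younger against older cells). The gene named first was higher in 13 pairs and the second in 5, with ranges over the libraries that did not overlap. How often the ranges of any 2 genes lie apart was not counted, so these numbers are not particular to the listed pairs. In receptors, Grin2b, the early NMDA receptor subunit, stood at 41.1, 31.5, 31.9 and 26.9 TPM against 2.26, 2.04, 1.98 and 1.36 TPM for Grin2a, a 17.2-fold difference of means (log2 ratio 4.04 ± 0.15). Glra2, the fetal glycine receptor subunit, was at 34.0 to 42.5 TPM, while Glra1 had 4, 4, 3 and 0 reads, too few for a ratio. In the cytoskeleton, Ina, an early neurofilament-like subunit, was at 270, 231, 234 and 219 TPM and Nefh, the late heavy subunit, at 1.84, 1.72, 2.01 and 1.88 TPM, a 128-fold difference. Tubb2b exceeded Tubb4a 15.6-fold, and this ratio was the steadiest of all (log2 3.96 ± 0.02). Camk2b exceeded Camk2a, the adult forebrain kinase subunit, 6.34-fold (log2 2.66 ± 0.05).

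Other pairs with the early form higher were Igf2 over Igf1 (42.5-fold), St8sia2 over St8sia4, enzymes that add polysialic acid to NCAM (8.72-fold), and Slc1a3 over Slc1a2, glial glutamate transporters (4.81-fold). Of the pairs of another kind, Ptbp2, the splicing regulator that takes over from Ptbp1 in neurons, exceeded Ptbp1 3.67-fold, Dcx exceeded Rbfox3, the NeuN antigen, 2.84-fold, and Pdgfra exceeded Mbp 1.18-fold. As CPM, which is not scaled for length, 6 of the 19 ratios moved by over 1.5 times, here on the log2 scale: Grin2b over Grin2a from 4.04 to 4.71, Igf2 over Igf1 from 5.38 to 4.34, Slc1a3 over Slc1a2 from 2.28 to 0.94, Dcx over Rbfox3 from 1.50 to 3.36, Pdgfra over Mbp from 0.24 to 0.95, and Glra2 over Glra1, where reads are too few. Scn3a, an early sodium channel, overlapped with Scn8a through replicate 1 alone: Scn3a was at 42.4, 27.5, 29.4 and 27.9 TPM and Scn8a at 30.4, 22.6, 22.9 and 20 TPM. Within each library Scn3a was the higher gene (log2 ratio 0.40 ± 0.10). Without replicate 1 the ranges of all 19 pairs were apart.

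Pairs in which the late form was the higher one included chloride transport, vesicular glutamate transport, scaffold and globin. Slc12a5, the chloride extruder KCC2, stood at 48.5, 30.7, 36.9 and 34.8 TPM against 26.5, 21.5, 21 and 19.6 TPM for Slc12a2, the chloride importer NKCC1. The log2 ratio of Slc12a2 to Slc12a5 was -0.75 ± 0.16, with replicate 2 nearest to 0. It was smaller in size with protein_coding transcripts alone (-0.33) and as CPM (-0.31). Slc17a7, the main cortical vesicular glutamate transporter, stood at 73.7, 68.5, 65.3 and 53.4 TPM and Slc17a6 at 24.7 ± 0.97 TPM. Dlg4 exceeded Dlg3 in every library (log2 ratio of Dlg3 to Dlg4 -2.20 ± 0.12, and -3.06 with protein_coding transcripts alone). The adult globin Hbb-bt was at 65.0, 471, 106 and 318 TPM and the embryonic Hbb-y at 0.266 to 0.767 TPM, a log2 ratio of -8.18 with 0.1 TPM added and of -6.87 with 1 TPM added.

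**Figure D3:**
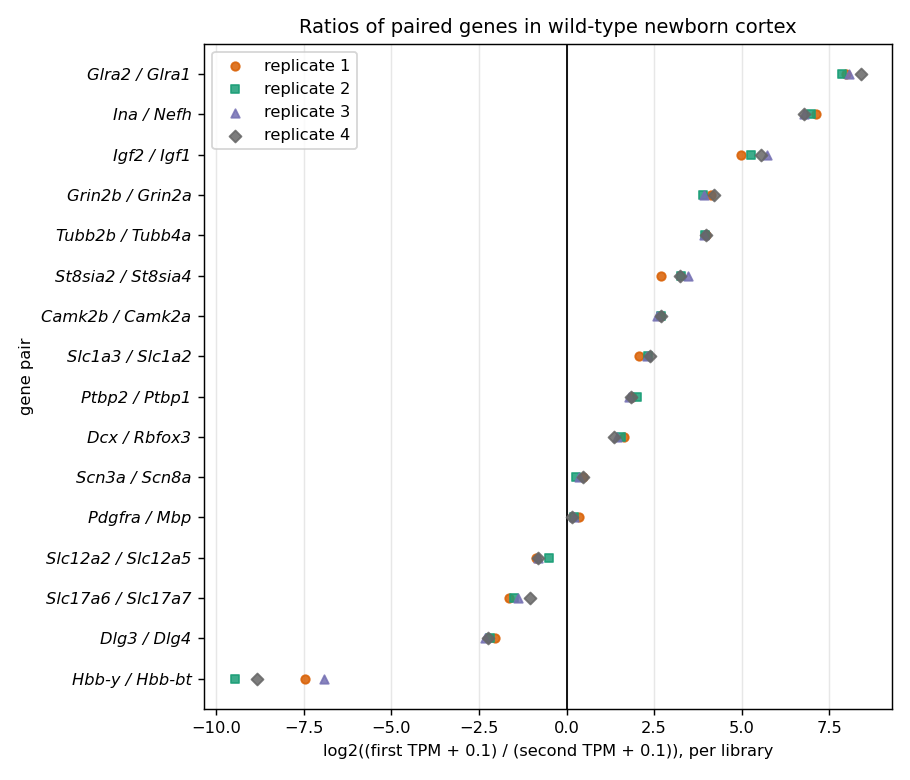
Log2 ratio of the first to the second gene for 16 of the 19 gene pairs, with 0.1 TPM added to each gene and 1 point per wild-type library. The vertical line marks equal levels, and the pairs run from Glra2 over Glra1 at the top, where Glra1 has 4 reads at most, to Hbb-y over Hbb-bt at the bottom.

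Each gene's TPM is shared among its annotated transcripts, and the most abundant of these is called the leading transcript. Over the 17203 symbols of at least 1 TPM the median share of the leading transcript was 79.7 ± 0.40%, and over those with at least 2 transcripts it was 66.4%. The same transcript led in all 4 libraries for 10814 of 12765 symbols with at least 2 transcripts (84.7%). Among 11985 protein-coding genes the leading transcript held at least 90% in 2330 (19.4%) and under 50% in 3438 (28.7%). The share fell with the number of annotated transcripts, from a median of 84.9% for 2 to 4 transcripts to 60.3% for 5 to 9 and 40.7% for 10 or more. The leading transcript was the same in all libraries for 77.3% of genes of 1 to 10 TPM and for 91.2% of genes of 100 TPM or more. It was the longest annotated transcript in 51.3%.

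A protein_coding transcript led in 91.1% of these genes by TPM and in 94.7% by reads. A transcript with a retained intron led in 468 genes, a processed transcript with no reading frame in 330 and a target of nonsense-mediated decay in 265. The most abundant genes of this kind were Tpt1, Ppia, Rpsa, Rpl35, Eef1b2, Eif4a2, Gapdh and Rps16. Gapdh, the glycolytic enzyme often used as a reference, had 56.1 ± 2.13% of its TPM on Gapdh-206, a retained-intron model of 565 bases, but only 34.7% of its reads, and by reads the protein-coding Gapdh-202 led. Tpt1 behaved likewise, with 53.7 ± 1.07% of TPM and 36.9% of reads on the 661-base Tpt1-204. For Ppia, the cyclophilin A gene, the leading transcript Ppia-201 is annotated as a decay target and held 59.4 ± 0.56% of TPM and 64.2% of reads. The abundant genes whose leading transcript differed between libraries were Rps15a, Hnrnph1, Rps3, Hnrnpab and Dbn1. In Hnrnpab, an RNA-binding protein gene, Hnrnpab-203 led in replicates 1 and 3 and Hnrnpab-201 in 2 and 4, with the former at 48.4% to 52.1%.

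Exon choice was read from the transcripts of 45 genes known for alternative exons. The inclusion of an exon is the TPM of transcripts that hold it, as a percentage of the TPM of transcripts that span it. Of 787 internal coding exons of at most 300 bases, 163 in 40 genes had a minor form of at least 5%. Mapt, Gria3, Cdc42, Bcl2l1 and Phf6 had no such exon. Their SD over libraries had a median of 1.63 percentage points. These shares follow the transcript models and the way Salmon divides reads among them, and counted by reads in place of TPM, 8 of the 163 exons lay on the other side of 50%.

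Snap25 has a pair of mutually exclusive exons on chromosome 2, of which SNAP-25a is known as the embryonic form and SNAP-25b as the adult one. The exons are shown because the choice between them exchanges an exon for another of the same length. Capitals mark the 31 bases of 118 that differ, both read on the plus strand of GRCm38, at chr2:136769743-136769860 and chr2:136770057-136770174.
SNAP-25a exon: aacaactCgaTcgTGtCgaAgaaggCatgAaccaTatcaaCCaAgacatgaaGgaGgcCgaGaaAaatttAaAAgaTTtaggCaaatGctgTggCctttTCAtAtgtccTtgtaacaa
SNAP-25b exon: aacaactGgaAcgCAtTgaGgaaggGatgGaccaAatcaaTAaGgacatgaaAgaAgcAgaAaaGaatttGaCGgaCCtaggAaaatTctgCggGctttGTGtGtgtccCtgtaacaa
SNAP-25b held 61.9%, 61.1%, 61.3% and 62.9% of TPM in replicates 1 to 4, and SNAP-25a the remaining 38.2 ± 0.82%. By reads SNAP-25b held 79.1%. By TPM the form known as adult was the larger share in each library, with a spread of under 2 points. Each exon is held by 1 of the 2 transcript models that span it, so these are shares of whole models.

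AMPA receptor genes carry a flop and a flip exon, which set how fast the channel desensitises, and flip is known to prevail early in development. The exons of Gria1 and Gria2 are shown because the flip share came out nearly the same by TPM and by reads in Gria1 and not in Gria2. Capitals mark the 36 of 115 bases that differ between flop and flip of a gene. Gria1 lies on the plus strand of chromosome 11 (flop chr11:57309769-57309883, flip chr11:57310608-57310722) and Gria2 on the minus strand of chromosome 3 (flop chr3:80691320-80691434, flip chr3:80690404-80690518).
Gria1 flop: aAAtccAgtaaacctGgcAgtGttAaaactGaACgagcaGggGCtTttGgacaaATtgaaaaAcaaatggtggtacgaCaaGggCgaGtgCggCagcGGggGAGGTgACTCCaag
Gria1 flip: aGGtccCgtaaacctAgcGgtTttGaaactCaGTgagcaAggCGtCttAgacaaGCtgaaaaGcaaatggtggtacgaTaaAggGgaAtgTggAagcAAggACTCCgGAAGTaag
Gria2 flop: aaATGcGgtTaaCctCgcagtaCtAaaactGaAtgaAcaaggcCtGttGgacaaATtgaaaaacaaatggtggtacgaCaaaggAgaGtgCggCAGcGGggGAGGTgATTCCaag
Gria2 flip: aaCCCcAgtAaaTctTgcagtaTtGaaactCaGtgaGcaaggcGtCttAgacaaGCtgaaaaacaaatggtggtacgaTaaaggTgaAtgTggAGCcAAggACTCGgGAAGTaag
In Gria1 flip held 84.0%, 82.9%, 84.8% and 82.8%, and the share by reads was 84.0%. In Gria2 flip held 70.8%, 64.7%, 66.5% and 62.8% and flop 40.4%, 46.5%, 43.4% and 48.7%, which add up to more than all because a transcript model holds both exons. By reads the order in Gria2 turned round, with flip at 43.9% and flop at 62.9%, so no order of the 2 forms is given for that gene. Gria4 had flip at 61.9 ± 5.38%, its libraries ranging from 55.9% to 67.5%.

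Pkm, the pyruvate kinase gene, chooses between an upstream exon for the M1 enzyme of differentiated tissue and a downstream exon for the M2 enzyme of proliferating cells. The exons are shown because both were in wide use here. Capitals mark the 64 of 167 bases that differ, on the plus strand at chr9:59675029-59675195 and chr9:59675568-59675734.
Pkm upstream exon: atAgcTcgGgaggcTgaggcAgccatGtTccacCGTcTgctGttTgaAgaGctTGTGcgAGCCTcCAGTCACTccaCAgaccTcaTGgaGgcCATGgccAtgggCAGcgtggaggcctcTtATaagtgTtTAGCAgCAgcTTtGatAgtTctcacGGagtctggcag
Pkm downstream exon: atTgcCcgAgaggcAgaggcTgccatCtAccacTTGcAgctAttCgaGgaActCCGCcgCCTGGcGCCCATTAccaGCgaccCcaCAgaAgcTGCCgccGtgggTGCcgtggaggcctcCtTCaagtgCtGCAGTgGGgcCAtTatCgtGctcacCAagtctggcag
The upstream exon held 56.4%, 56.2%, 56.8% and 55.0%, and the downstream exon 43.4 ± 0.79%. By reads the shares were 52.2% and 47.7%, the same order by a narrower margin.

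Single exons that neurons are known to add or drop were also read. App, the amyloid precursor gene, leaves out in neurons a 168-base exon for a protease inhibitor domain and a 57-base exon beside it, and Src gains an 18-base exon. The shorter ones are shown because each codes for a short stretch that is present or absent as a whole. Capitals mark the exon and the 10 bases on each side are the neighbouring exons, with App on the minus strand (chr16:85040251-85040307) and Src on the plus strand (chr2:157458843-157458860).
App 57-base exon: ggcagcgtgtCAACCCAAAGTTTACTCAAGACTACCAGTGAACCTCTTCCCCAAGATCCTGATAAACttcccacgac
Src 18-base exon: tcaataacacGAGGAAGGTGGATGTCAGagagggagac
The 168-base App exon was included at 8.8%, 8.5%, 9.3% and 8.7% and the 57-base exon at 5.98 ± 0.55%. The Src exon was included at 78.3%, 79.2%, 77.2% and 75.2%. Both genes were thus mainly in the form known from neurons.

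Clathrin light chains have neuronal inserts too. In Clta the 54-base exon was included at 78.8 ± 1.52% and the 36-base exon at 14.4 ± 1.11%. In Cltb the 54-base exon was at 58.2 ± 0.76% by TPM but at 34.0% by reads. In Grin1, the obligatory NMDA receptor subunit, the 63-base exon of the extracellular domain was at 15.8 ± 0.87%. Its 111-base exon of the intracellular tail was at 59.4% in replicate 1 and at 47.9%, 48.8% and 43.8% in the others. Ptbp2 included a 34-base exon, whose skipping leads to decay of the transcript, at 74.1 ± 1.33% by TPM and 94.6% by reads.

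Mapt, which encodes tau, is known for a 93-base exon that adds a microtubule-binding repeat and is skipped in newborn rodents. Of the 6 transcripts in the files that span this exon, 5 held it whole. The other, Mapt-210, a processed transcript of 779 bases, overlapped it in another form. No transcript skipped it, so a skipping share could not be measured with these transcript models, and the 96.3 ± 0.55% given to transcripts with the exon is no measure of inclusion. Mapt as a gene stood at 906, 873, 879 and 773 TPM.

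**Figure D4:**
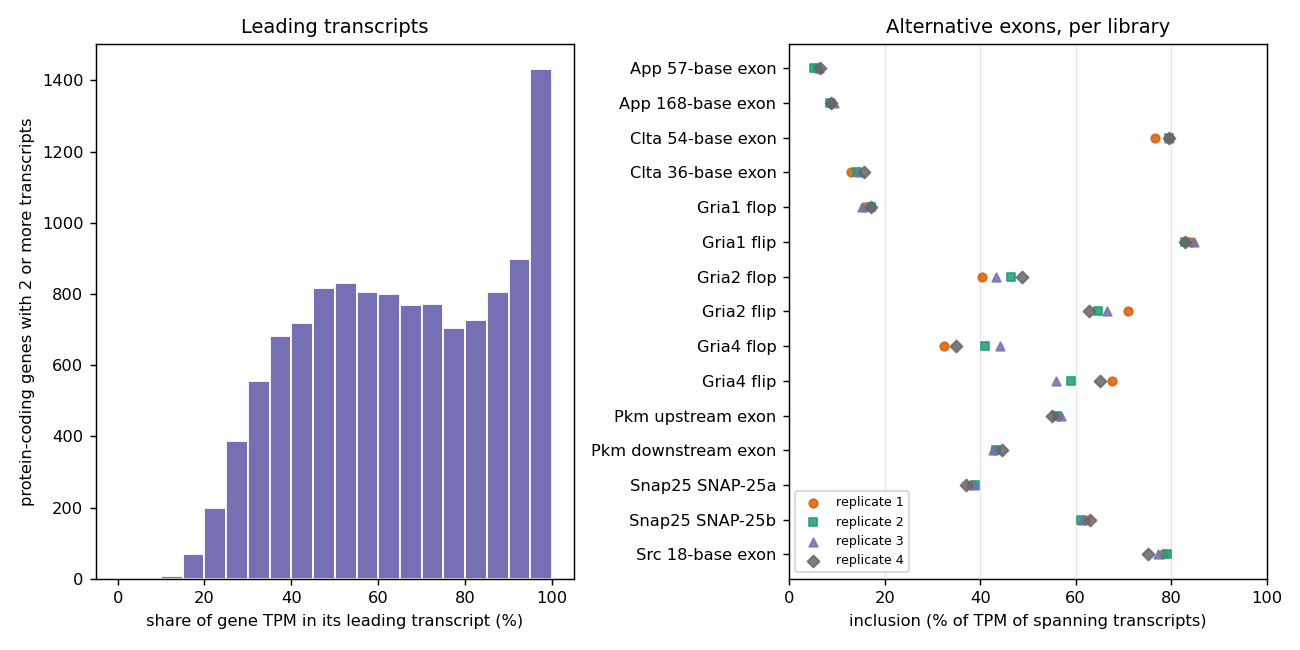
Left, number of protein-coding genes with at least 2 transcripts (11985) by the share of gene TPM in the leading transcript, in bins of 5 percentage points. Right, inclusion of 15 alternative exons, in percent of the TPM of spanning transcripts, with 1 point per wild-type library, where Gria4 is the most spread and Pkm and Snap25 among the tightest.

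The libraries varied little for most genes. Over 13594 protein-coding genes of at least 1 TPM, the median SD of log2(TPM + 1) was 0.12 and the median coefficient of variation 8.90%, against 2.34% expected from counting alone. The median coefficient of variation was 14.7% at 1 to 10 TPM, 7.91% at 10 to 100 TPM, 4.37% at 100 to 1000 TPM and 5.67% above. The SD was at least 1 in 18 of these genes. The biological coefficient of variation that edgeR estimated from the summed reads was 10.5%. Without replicate 1 it was 5.51%, and without replicate 2, 3 or 4 it was 12.2%, 12.2% and 11.0%.

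**Figure D5:**
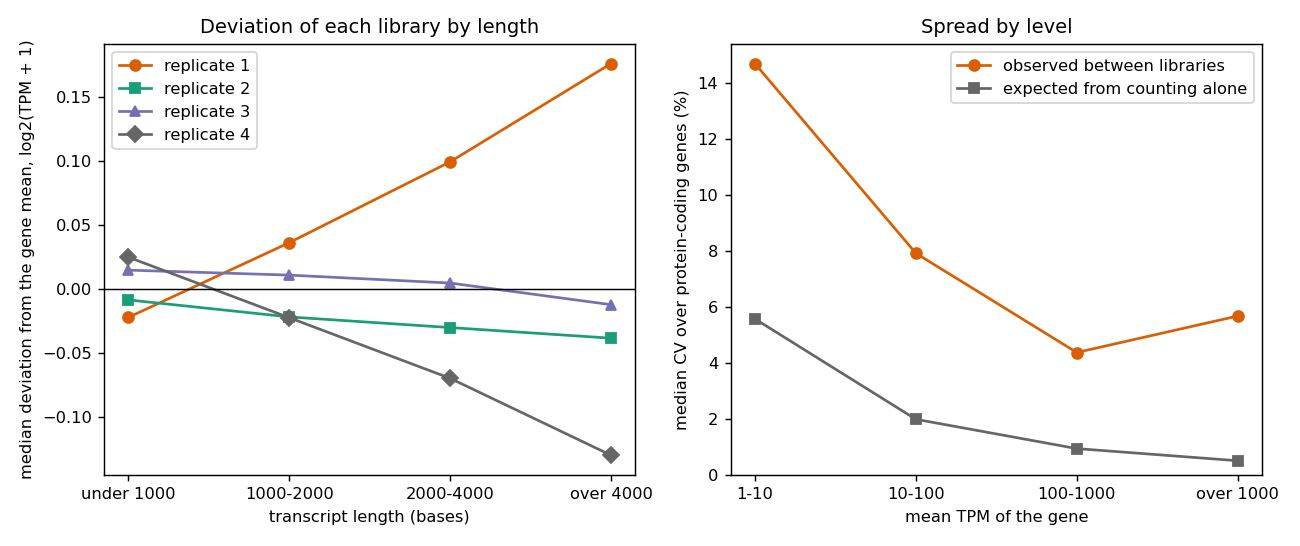
Left, median deviation of each wild-type library from the gene mean, log2(TPM + 1), for protein-coding genes of at least 5 TPM in 4 bins of transcript length, with replicate 1 rising to 0.18 and replicate 4 falling to -0.13. Right, median coefficient of variation between libraries by level of the gene (orange), above the value expected from counting alone (grey) in each bin.

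The steadiest genes of at least 5 TPM were Armc9 (20 ± 0.07 TPM), Ppia (2356 ± 8.80 TPM), Ptprs, a receptor phosphatase (511 ± 2.17 TPM), Rab5if (99.5 ± 0.43 TPM) and Bloc1s6, a lysosome biogenesis subunit (52.6 ± 0.26 TPM). The most variable was Gh, the growth hormone gene of the pituitary (chromosome 11, 106300271 to 106301865), with no read in replicates 1, 2 and 3 and 825 reads, or 31.7 TPM, in replicate 4. Other pituitary hormone genes were looked up after this was seen: Prl had no read in any library, which at these depths allows a share of up to 4.04e-06% to 6.14e-06% of the reads (3 reads, counting error only), Cga had 6 reads in replicate 4 and none elsewhere, and Pomc stood at 1.65, 1.53, 1.60 and 2.80 TPM. The globins Hba-a1 (939, 4004, 1317 and 2669 TPM), Hba-a2, Hbb-bs and Hbb-bt were highest in replicate 2 and lowest in replicate 1. Alas2, the first enzyme of heme synthesis in red cells, had the same order, at 5.97, 19.2, 6.96 and 13 TPM. Hemgn, an erythroid nuclear protein gene, stayed under 0.1 TPM in every library.

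Several variable genes fell into a pattern of 1 library or of pairs of libraries. Rpl3, a ribosomal protein gene, was at 474 TPM in replicate 1 and at 119, 115 and 118 TPM in the others. Myo7a, an unconventional myosin, stood at 2.28, 11.7, 1.62 and 10.4 TPM, high in replicates 2 and 4 and low in 1 and 3. Mid1, an X-linked ubiquitin ligase gene that came next in the order, had the same split, at 96.3, 273, 101 and 278 TPM. Xlr3b was at 1.05 TPM in replicate 1 and at 5.50 to 7.85 TPM in the others. Hist2h2aa2 (0, 8.59, 3.34 and 11.1 TPM) and Srp54b (0.291, 1.74, 11.4 and 10.4 TPM) have near-identical copies, Hist2h2aa1 and Srp54a, and the division of reads between copies is uncertain. Srp54a, at 91.0, 74.8, 79.8 and 68.7 TPM, far exceeded Srp54b.

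Further genes set replicate 1 apart and were named after their values were seen. The Y-linked Eif2s3y was at 197 TPM in replicate 1 and at 103, 98.3 and 106 TPM in the others, and Kdm5d and Uty had the same order of replicate 1 over the rest (26.8 against 12.5 to 14.7 TPM, and 19 against 5.80 to 7.35 TPM). The cholesterol synthesis enzymes Hmgcs1, Idi1 and Sqle were also highest in replicate 1, as were 59.8% of all detected protein-coding genes. Hmgcs1 stood at 539, 346, 323 and 293 TPM, Idi1 at 84.0, 38.2, 35.4 and 32.8 TPM, and Sqle at 158, 98.7, 99.4 and 89.8 TPM. What set replicate 1 apart was not tested.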

How the data were processed

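The authors deposited 1 Salmon quantification per library, which gives for each transcript, per the file headers, a TPM value and an estimated count of reads (expected count) that need not be whole. The submitters' processing notes name Salmon 0.12.0, DESeq2 and the GRCm38 build. Strand settings, read filters and Salmon's options: not given in the sources used here. Mutant files and the authors' comparison table were not used here.

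TPM was summed per symbol. Of 136202 transcripts, 136093 matched GENCODE M21 (GRCm38) by identifier without version, and of 53392 genes 53355 matched; coordinates, exons and sequences come from that release. Detection means at least 1 TPM in each library, and logs use TPM + 1 unless stated. The biological coefficient of variation came from edgeR 4.0.16 in R 4.3.3 (TMM scaling, intercept alone, default count filter, gene sums rounded), tested on simulated data; DESeq2 1.42.0 gave alternative size factors. Tables used Python 3.11.15 and pandas 2.3.3. With 1 group, no test between conditions was made, and Dixon's critical value served only to mark single libraries.

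Genes named are the 20 protein-coding and 5 other nuclear symbols of highest TPM, up to 4 highest and all members under 0.1 TPM of each list (further list members are given as examples), all pairs, the 10 most and 5 least variable genes of at least 5 TPM, genes with described exons, and abundant genes with a non-coding or changing leading transcript; predicted genes named Gm or Rik were left out, save Gm24245. The libraries and lists were chosen with earlier results of these data known. The genes said to be looked up later, Gm24245, Xist, the ribosomal gene pattern and 2 alternatives (transcripts under 200 bases left out, spread centred within length bins) were chosen after seeing the data. Of the 10 red blood cell genes, 9 were matched. Some genes are not reported here by name, though counts and medians over the lists and pairs include them.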

Additional observations from a re-analysis of the deposited data

Results flagged for a closer look

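Of 108 groups of 4 library values examined, 3 had a library that stood apart. Its gap to the nearest other was, as a share of the whole range, above Dixon's critical value. Chance alone marks about 1 in 20 groups, so 3 marks in 108 groups are no more than that rate gives. Gh and Rpl3 were named because their spread between these same libraries was among the largest, so that rate does not apply to their marks. The log2 ratio of Slc12a2 to Slc12a5 was -0.51 in replicate 2 and between -0.87 and -0.81 in the other libraries. Gh stood at 31.7 TPM in replicate 4 and at 0 in the other 3. Rpl3 stood at 474 TPM in replicate 1 and at 115 to 119 TPM in the others. The causes were not tested.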

How the results depend on the processing

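The share of TPM in the 100 most abundant genes was 20.7% with mitochondrial genes left out and 15.8% as CPM not scaled for length. The median share of the leading transcript was 71.2% at 10 TPM or more, 100% with no filter, 66.4% with at least 2 transcripts and 90.8% by reads. The median spread over all symbols of at least 1 TPM, 0.13 on the log2 scale, was 0.10 with no filter, and leaving out each library in turn gave 0.0789 (without replicate 1) to 0.144. With values centred within 20 bins of transcript length the median spread was 0.11. The median exon inclusion of 63.2% became 61.7% with protein_coding transcripts alone; the causes were not tested. Symbols detected in all libraries numbered 15774, and 15928 to 16065 with a library left out, 17621 at 0.5 TPM, 11618 at 5 TPM and 19569 at 10 reads. Of 163 exon shares, 125 moved by more than their SD when counted by reads and 73 with protein_coding transcripts alone. All 19 pair ratios kept their sign as CPM and with protein_coding transcripts alone. Each pair had the same sign in every library, so leaving out a library or adding 1 TPM could not turn it. As CPM, the ranges of 16 pairs did not overlap. With members under 1 TPM left out, 15 lists in place of 13 lay above the median of detected protein-coding genes. Leaving out low members can only raise a list's median. The added lists were red blood cells, with 5 of 9 members left, and cerebellum and hindbrain, with 3 of 14 left. Leaving out a library was run for exons on the median alone. No paired analysis was possible because a single group is described and no test between conditions was made. Depth limits genes near 0.1 TPM, which rest on few reads.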
